A study of Mus musculus with 12 samples.

Results

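Collagen chain genes encode the polypeptides that wind together into collagen molecules, and they were taken here as every gene whose symbol reads Col, a type number, a and a chain number. The rule found 43 genes among 33924 listed in one set of libraries and 22609 in the other. By the structure that their chains build, 11 were placed among the fibrillar collagens, 8 among the basement membrane collagens (the 6 type IV chains, Col15a1 and Col18a1) and 24 among the other collagens, which hold the beaded-filament, fibril-associated, network-forming, anchoring and membrane-spanning chains. A gene was tested in a set where its mean over the libraries reached 1 CPM (assigned reads scaled to library size, with TMM factors), which left 34 chains in the first set, 33 in the second and 35 in a fit over the wild-type libraries of both.

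RNA from whole lung of B6 mice aged 6 to 8 weeks was sequenced 14 to 16 h after treatment with phosphate-buffered saline (PBS) or house dust mite (Dermatophagoides farinae, D.f.) extract. One set, called the RNase III set, held wild-type mice given PBS (libraries 1 and 2), D.f. extract without RNase III (libraries 3 and 4) or D.f. extract with RNase III (libraries 5 and 6). RNase III is a nuclease specific for double-stranded RNA. The knockout set held wild-type mice and TLR3MAVS double knockout mice (DKO), which lack an endosomal receptor for double-stranded RNA and the adaptor of the cytosolic RNA sensors, given PBS (1 library per genotype) or D.f. extract (2 libraries per genotype). The labels do not say whether the libraries of a group came from separate animals, so p-values reflect no more than the differences among these libraries and may be technical.

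Collagens form the scaffold of the lung. Fibrillar chains, made mainly by fibroblasts, assemble into the fibres that carry tension in airway, vessel and alveolar walls. Type IV chains build the sheets of basement membrane under epithelium and endothelium, where Col4a1 and Col4a2 chains combine in the network found in nearly all tissues and Col4a3, Col4a4 and Col4a5 chains in a network of the mature alveolus and the kidney filter. Other chains decorate fibrils (Col12a1, Col14a1, Col16a1), form beaded filaments around cells (type VI) or cross the cell membrane (Col13a1, Col17a1, Col23a1).

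The libraries of the RNase III set held 17754518 to 25714074 assigned reads and those of the knockout set 15687699 to 20945618, and a count of 0 allows up to 3 reads, or 0.117 to 0.191 CPM. Such limits cover counting error only. Lung markers were abundant in the RNase III set, with Sftpc of alveolar type 2 cells at 2476 to 7333 CPM and Ager of alveolar type 1 cells at 745 to 1477 CPM. The airway marker Scgb1a1 was at 11851 to 24279 CPM in the RNase III set and 1052 to 1711 CPM in the knockout set. Scgb3a2 was at 223 to 539 CPM and 13.1 to 29.1 CPM. Foxj1, another airway marker, overlapped between the sets, at 46.7 to 111 CPM and 44.2 to 75.4 CPM. The part of airway tissue in differences between the sets was not tested. The 10 cardiac muscle markers of the RNase III set summed to 189 and 1434 CPM with PBS, then 531 and 1095 CPM with D.f. extract and 248 and 224 CPM with RNase III, and the 7 adipose markers to 7.52 and 133 CPM, 43.4 and 66.4 CPM, and 11.6 and 6.31 CPM. PBS replicate 2 stood highest in both lists, and the D.f. libraries lay above the RNase III libraries. Counts of calls are also given without PBS replicate 2 for D.f. extract against PBS, RNase III against untreated extract and both sets together. Mavs was at 32.1 to 37.0 CPM in the wild-type libraries of the knockout set and at 2.34 to 3.08 CPM in the knockout libraries, and Tlr3 at 43.1 to 156 CPM against 9.99 to 14.7 CPM. In bulk lung RNA, fewer cells of a type and less RNA per cell cannot be told apart. Groups are said not to overlap where every library of one lies above every library of the other. Between groups of 2 libraries this can arise by order alone, and its share over all genes was not counted.

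The upstream sequences of 4 chains that fell with D.f. extract and were higher with RNase III are shown because these genes moved together. Each line is the 150 bases before the gene's start in RefSeq on GRCm38.p6, 5′ to 3′ on the gene's strand, and capitals mark CCAAT or TATAAA on either strand. Both Col14a1 and Col4a3, which moved with them, are named only.

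Col13a1 (chr10:61979109-61979258, minus strand): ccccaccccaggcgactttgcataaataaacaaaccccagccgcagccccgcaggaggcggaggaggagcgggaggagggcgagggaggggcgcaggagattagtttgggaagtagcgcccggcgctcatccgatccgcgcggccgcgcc
Col17a1 (chr19:47692043-47692192, minus strand): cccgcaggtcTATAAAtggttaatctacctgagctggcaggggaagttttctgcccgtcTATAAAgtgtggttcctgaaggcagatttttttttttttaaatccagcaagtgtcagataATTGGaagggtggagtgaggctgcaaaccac
Col27a1 (chr4:63215262-63215411, plus strand): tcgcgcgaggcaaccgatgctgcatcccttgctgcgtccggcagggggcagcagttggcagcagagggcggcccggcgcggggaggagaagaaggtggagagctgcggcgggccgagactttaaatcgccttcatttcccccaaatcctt
Col6a3 (chr1:90843972-90844121, minus strand): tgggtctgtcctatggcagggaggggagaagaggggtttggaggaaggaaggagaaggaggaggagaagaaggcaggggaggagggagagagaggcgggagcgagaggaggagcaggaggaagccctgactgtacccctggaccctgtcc

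Of these windows, only that of Col17a1 held a marked motif. RefSeq promoter entries matched 35 of the 43 genes (38 entries), and 250 upstream bases of each were searched on both strands. CCAAT was found in 34.2% of the collagen entries and in 33.8% of all 32851 entries, and TATAAA in 13.2% and 12.4%. The STAT-type motif TTCNNNGAA was found in 5.26% and 7.02%, and CACCTG in 10.5% and 17.2%. GAAANNGAAA, an interferon-response motif, was in 0 collagen entries and 2.98% of all, and GTCTAGAC, which SMAD proteins bind, in 0 and 0.167%. These matches describe letters in the window and are not binding sites.

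Several chains neighbour each other in the genome (NCBIM37, the mm9 build of the files). Col4a4 and Col4a3 lie head to head on chromosome 1 with 71 bases between their annotated starts (chr1:82583425-82583495, plus strand), shown here because both genes are read outward from it.

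Col4a4 to Col4a3: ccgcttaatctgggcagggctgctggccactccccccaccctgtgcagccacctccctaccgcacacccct

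Its GC content was 69%, and it held neither CCAAT nor TATAAA. Col4a1 and Col4a2 lie head to head on chromosome 8, where their gene models overlap by 22 bases, and Col4a6 and Col4a5 lie head to head on chromosome X with 1308 bases between them. Col3a1 and Col5a2 lie tail to tail 24614 bases apart on chromosome 1, Col6a2 and Col6a1 in tandem on chromosome 10, 85161 bases apart, and Col6a6, Col6a5 and Col6a4 in tandem on chromosome 9. The 2 remaining neighbours, Col9a1 and Col19a1, lie tail to tail 9151 bases apart on chromosome 1.

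Of the reads assigned to genes, collagen chains together took 0.798% to 1.05% in the RNase III set, with 1.01% to 1.41% in the knockout set. Levels were compared between genes per kilobase of exon. Among basement membrane chains, the means over the RNase III set were 265 CPM per kb for Col4a1, 227 for Col4a2, 44.8 for Col4a3 and 33.9 for Col4a4. Among fibrillar chains they were 140 CPM per kb for Col3a1, 103 for Col1a1, 48.2 for Col1a2 and 22.2 for Col5a1. The other class was led by the beaded-filament chains Col6a1 (97.3 CPM per kb), Col6a2 (44.9) and Col6a3 (40.0), followed by the membrane-spanning Col13a1 (20.0). The network chain Col4a1 was thus the most abundant collagen transcript per kilobase, above Col3a1 of fine reticular fibres.

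Partner chains were compared by their ratio per kilobase in each of the 12 libraries. Col1a1 stood at 1.67 to 2.47 times Col1a2, its partner in type I collagen, Col4a1 at 0.963 to 1.34 times Col4a2, Col5a1 at 0.924 to 1.41 times Col5a2, and Col6a1 at 2.04 to 2.90 times Col6a2. The ratio of Col4a1 to Col4a3, chains of different type IV networks, was chosen after its values were seen and is given as a description. It was 3.45 and 4.22 in the PBS libraries of the RNase III set, 10.4 and 11.7 with D.f. extract, and 5.01 and 5.05 with RNase III. The knockout set had a ratio of 4.25 and 4.33 in the wild-type and knockout PBS libraries. With D.f. extract it was 8.31 and 7.48 in wild-type lung and 4.72 and 7.20 in knockout lung. Col4a3 itself changed by -0.11 on the log2 scale with D.f. extract in knockout lung, within 0.03 of its change in wild-type lung. Col4a1 changed by 0.33 in knockout and 0.75 in wild-type lung, so the ratio of that set moved mainly with Col4a1.

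**Figure D1:**
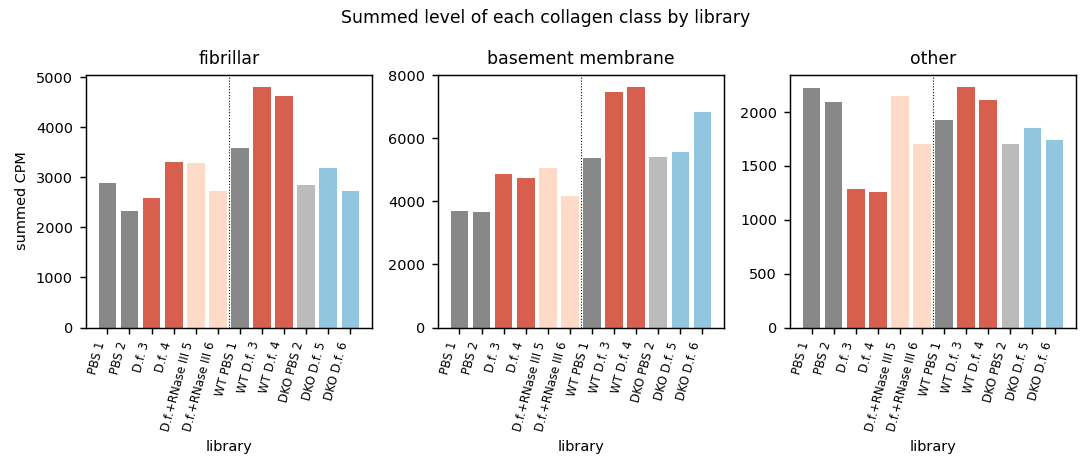
Summed CPM (y axis, linear from 0) of the fibrillar, basement membrane and other collagen chains in each of the 12 libraries (x axis). Bars left of the dotted line are the RNase III set and bars right of it the knockout set; grey is PBS, red untreated D.f. extract in wild-type mice, pale red D.f. extract with RNase III and blue D.f. extract in knockout mice. The other class was lowest in the D.f. libraries of the RNase III set, at 1283 and 1262 CPM.

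With D.f. extract in the RNase III set, the basement membrane class summed to 3689 and 3655 CPM with PBS against 4872 and 4744 CPM with D.f. extract, while the other class summed to 2224 and 2097 CPM with PBS against 1283 and 1262 CPM with D.f. extract. Both sums separated the groups without overlap, but Col4a1 (group means of 1314 and 2278 CPM) and Col4a2 (1218 and 1710 CPM) carried the rise of the basement membrane sum. Of its 8 chains, 4 had positive and 4 had negative log2 fold changes. The fibrillar class, at 2890 and 2325 CPM with PBS against 2592 and 3300 CPM with D.f. extract, overlapped.

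By gene, 10 of 34 tested chains changed with D.f. extract in the RNase III set (edgeR quasi-likelihood test, Benjamini-Hochberg adjusted p below 0.05 over all 15491 genes tested), 2 higher and 8 lower. Of all genes tested, 11.7% were called, 6.87% higher and 4.84% lower. The other class had 1 chain higher and 6 lower of 18 tested (median log2 fold change -0.53), the basement membrane class 1 higher and 1 lower of 8 (median -0.07) and the fibrillar class 1 lower of 8 (median 0.00), beside a median of -0.01 over all genes. The median of the other class was -0.27 without PBS replicate 1 and -0.72 without D.f. replicate 4. The fibrillar median lay between -0.21 and 0.16, and that of basement membrane between -0.21 and 0.030, the lowest without D.f. replicate 4 and the highest without D.f. replicate 3. Leaving out D.f. replicate 3 gave 3 calls, D.f. replicate 4 gave 2, RNase III replicates 5 and 6 gave 5 and 6, and PBS replicate 2 gave 17, of which 9 were among the 10. These counts stand without the share of all genes called in the same fits. The calls of Col13a1 and Col14a1 held in all 10 alternatives.

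Within type IV collagen, a chain of the widespread network rose and a chain of the restricted network fell. Col4a1 (chr8:11198423-11312826, minus strand) was at 1292 and 1335 CPM with PBS against 2286 and 2269 CPM with D.f. extract, and the groups did not overlap. It rose by 0.79 ± 0.16 on the log2 scale (SE, 1.73-fold, edgeR adjusted p = 0.0213). Col4a2, its partner chain, went from 1090 and 1346 CPM to 1777 and 1644 CPM (log2 fold change 0.49 ± 0.18, edgeR adjusted p = 0.133), which did not pass the threshold although the groups did not overlap.

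Col4a3 (chr1:82583496-82718634, plus strand), of the alveolar network, was at 548 and 462 CPM with PBS against 321 and 283 CPM with D.f. extract. It fell by 0.74 ± 0.17 on the log2 scale (1.67-fold lower, edgeR adjusted p = 0.0323). Its neighbour Col4a4 was at 411 and 225 CPM with PBS against 202 and 233 CPM with D.f. extract, and these ranges overlapped. Col4a5 overlapped too, at 178 and 126 CPM and 110 and 135 CPM, and Col4a6 went from 40.4 and 27.1 CPM to 18.7 and 20.9 CPM (edgeR adjusted p = 0.0612). Col15a1 and Col18a1, whose cleaved ends give anti-angiogenic fragments, had log2 fold changes of 0.16 and 0.29 and were not called. Without any 1 of the D.f. or RNase III libraries the calls of Col4a1 and Col4a3 were lost, at adjusted p of up to 0.105 and 0.184.

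**Figure D2:**
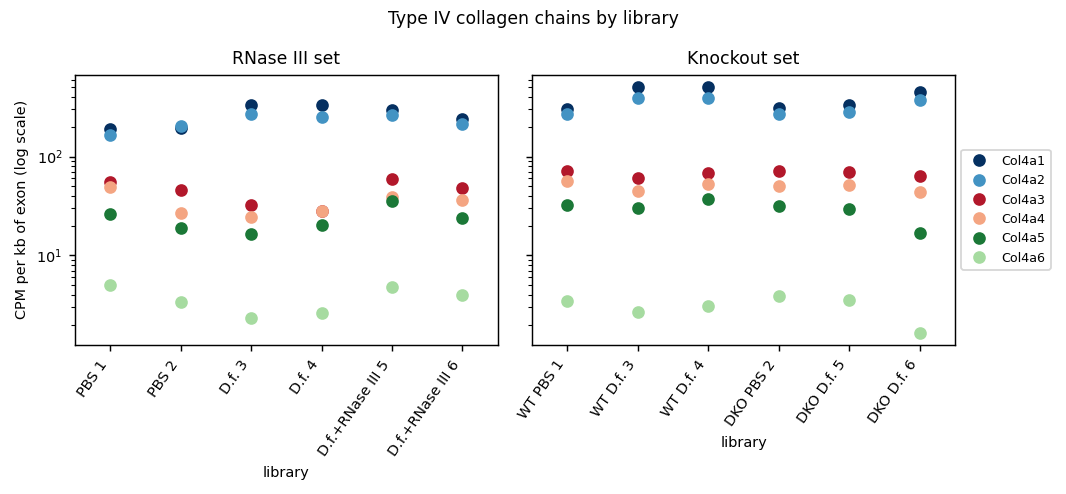
CPM per kilobase of exon (y axis, log scale) of the 6 type IV collagen chains in each library (x axis) of the RNase III set (left) and the knockout set (right); each point is 1 library. With D.f. extract in the RNase III set, Col4a1 lies above both PBS libraries and Col4a3 below them.

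The largest called falls were in chains that sit on fibrils or in the cell membrane. Col14a1 (chr15:55139305-55352358, plus strand), a fibril-associated chain, was at 74.9 and 104 CPM with PBS against 29.5 and 35.1 CPM with D.f. extract, well separated. It fell by 1.47 ± 0.18 on the log2 scale (2.77-fold lower, edgeR adjusted p = 0.00375). Col16a1, also fibril-associated, went from 75.6 and 63.6 CPM to 39.2 and 45.0 CPM, a fall of 0.73 ± 0.14 (edgeR adjusted p = 0.0180).

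Col17a1 (chr19:47720834-47766584, minus strand), the hemidesmosome chain that ties basal epithelial cells to the basement membrane, was at 13.2 and 9.05 CPM with PBS against 4.31 and 3.44 CPM with D.f. extract. It fell by 1.52 ± 0.25 (2.86-fold lower, edgeR adjusted p = 0.0113). Col13a1 (chr10:61300984-61441856, minus strand), a membrane-spanning chain of cell adhesion sites, was at 134 and 111 CPM with PBS against 60.3 and 44.9 CPM with D.f. extract, and fell by 1.22 ± 0.18 (edgeR adjusted p = 0.00677). The third tested membrane chain, Col23a1, was at 121 and 61.1 CPM with PBS against 74.7 and 75.5 CPM with D.f. extract, so its groups overlapped.

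Of the 6 beaded-filament chains of type VI collagen, 2 were called lower. Col6a3 (chr1:92663435-92740529, minus strand) was at 591 and 608 CPM with PBS against 303 and 294 CPM with D.f. extract, a fall of 1.01 ± 0.16 (edgeR adjusted p = 0.00882). Col6a2 went from 481 and 445 CPM to 261 and 250 CPM, a fall of 0.86 ± 0.18 (edgeR adjusted p = 0.0242). Col6a1 went from 528 and 480 CPM to 333 and 341 CPM without overlap, at an adjusted p of 0.0747. The remaining chains Col6a4, Col6a5 and Col6a6 were at 0.369 to 10.3 CPM over the set and were not called.

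Of the fibrillar chains, Col27a1 (chr4:62875038-62996025, plus strand), a chain of thin fibrils best known from cartilage, was the one called. It was at 44.6 and 39.7 CPM with PBS against 25.4 and 26.5 CPM with D.f. extract, and fell by 0.70 ± 0.12 (edgeR adjusted p = 0.0130). Both chains of type I collagen overlapped between the groups: Col1a1 was at 669 and 649 CPM with PBS against 559 and 779 CPM with D.f. extract, and Col1a2 at 645 and 486 CPM and 488 and 628 CPM. Col3a1 was at 1099 and 826 CPM with PBS against 1172 and 1484 CPM with D.f. extract (log2 fold change 0.46 ± 0.21, not called), without overlap.

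Col9a3 (chr2:180332495-180356894, plus strand), a fibril-associated chain of cartilage, was the other chain that rose. It was low, at 1.05 and 0.769 CPM (19 and 17 reads) with PBS and 2.61 and 6.80 CPM (66 and 156 reads) with D.f. extract, and rose by 2.37 ± 0.53 on the log2 scale (edgeR adjusted p = 0.0321). It was not called when D.f. replicate 4, PBS replicate 2 or either RNase III library was left out, at adjusted p of up to 0.159. Its partners Col9a1 and Col9a2 had 0 to 4 reads in each library of both sets. Of the cartilage markers in the RNase III set, Acan was at 0 to 0.317 CPM and Matn1 at 0 to 0.0872 CPM. Others were higher there: Chad, the most abundant, was at 11.6 to 25.9 CPM and Cytl1 at 1.38 to 4.57 CPM. Sox9 was at 0.908 to 2.44 CPM and Hapln1 at 0.588 to 2.42 CPM. In the knockout set Chad was at 0.566 to 1.52 CPM. Exons of Col9a3 overlap those of Tcfl5 on the opposite strand by 234 bases, and Tcfl5 was at 0 to 0.179 CPM.

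**Figure D3:**
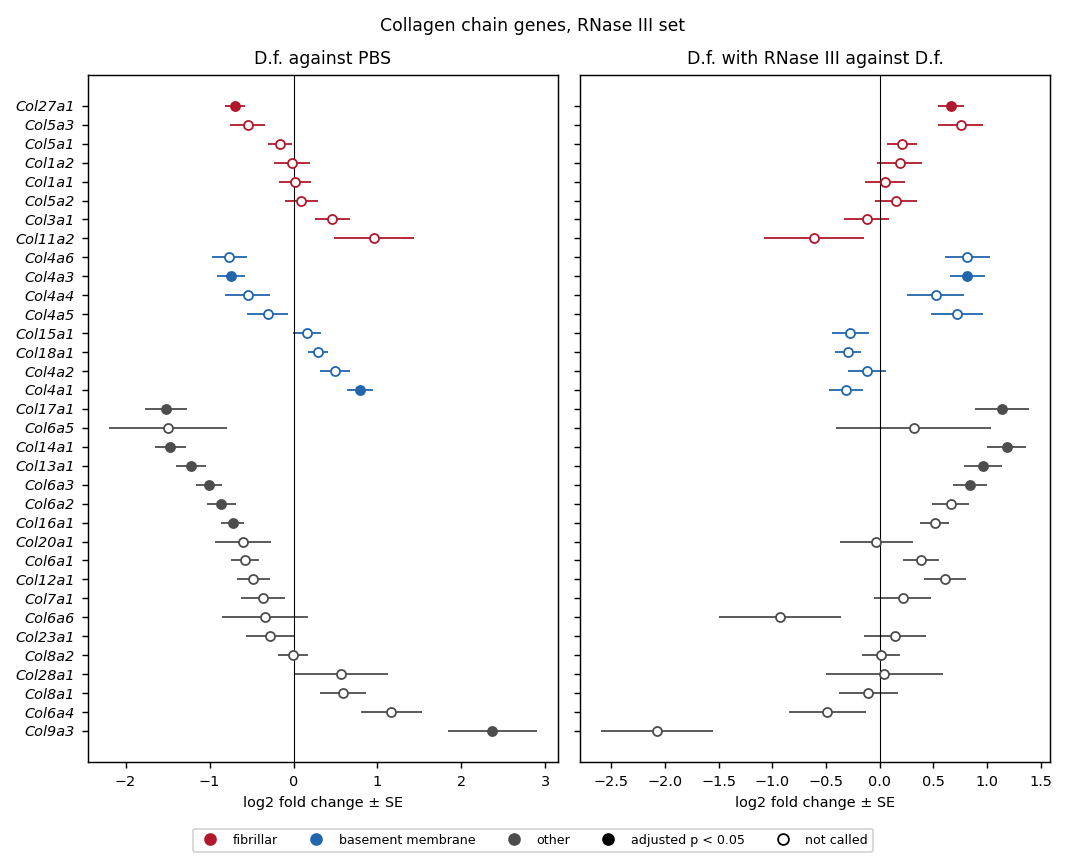
Log2 fold change ± SE (x axis) of the 34 tested collagen chains (y axis, ordered within class) for D.f. extract against PBS (left) and D.f. extract with RNase III against D.f. extract (right), from 6 libraries. Filled points passed an adjusted p of 0.05, and open points did not. The 6 chains filled on the right are also filled on the left, with the opposite sign; both comparisons share the D.f. libraries.

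RNase III treatment of the extract was set against the untreated extract to ask which differences depend on intact double-stranded RNA in it. Of the 34 chains, 6 were higher with RNase III than without it and 0 were lower, while 8% of all genes tested were called, 2.65% higher and 5.35% lower. They were Col14a1, Col13a1, Col17a1, Col6a3, Col4a3 and Col27a1, each of which was also called lower with D.f. extract against PBS. The D.f. libraries stand in both comparisons, so the opposite signs are not independent. The class medians were 0.17 (fibrillar), 0.20 (basement membrane) and 0.26 (other), beside 0.00 over all genes. Leaving out 1 library moved them over 0.00047 to 0.29 (lowest without RNase III replicate 5, highest without D.f. replicate 4), 0.10 to 0.30 (RNase III replicates 5 and 6) and 0.10 to 0.40 (D.f. replicates 3 and 4).

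Col14a1 was at 75.9 and 70.8 CPM with RNase III, close to the lower PBS library, and was higher than with D.f. extract alone by 1.18 ± 0.18 (2.27-fold, edgeR adjusted p = 0.0110). Col17a1 was at 8.92 and 8.18 CPM, higher by 1.14 ± 0.25 (edgeR adjusted p = 0.0406), and Col13a1 at 108 and 96.2 CPM, higher by 0.96 ± 0.18 (edgeR adjusted p = 0.0212). None of the RNase III libraries overlapped the D.f. libraries for these chains.

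Col6a3 was at 602 and 467 CPM with RNase III, higher by 0.84 ± 0.16 (edgeR adjusted p = 0.0218). Col4a3 was at 588 and 478 CPM, higher by 0.82 ± 0.17 (edgeR adjusted p = 0.0298), and Col27a1 at 40.6 and 41.6 CPM, higher by 0.66 ± 0.12 (edgeR adjusted p = 0.0202). The 6 chains were picked because both comparisons called them. As a share of the mean PBS level, they stood at 30.9% to 63.5% in the D.f. libraries and at 73.5% to 116% in the RNase III libraries. Col6a2 (469 and 338 CPM) and Col16a1 (59.9 and 60.1 CPM) lay above both D.f. libraries without passing the test, at adjusted p of 0.0699 and 0.0716. Col9a3 was at 0.881 and 1.34 CPM, below both D.f. libraries (edgeR adjusted p = 0.0579).

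**Figure D4:**
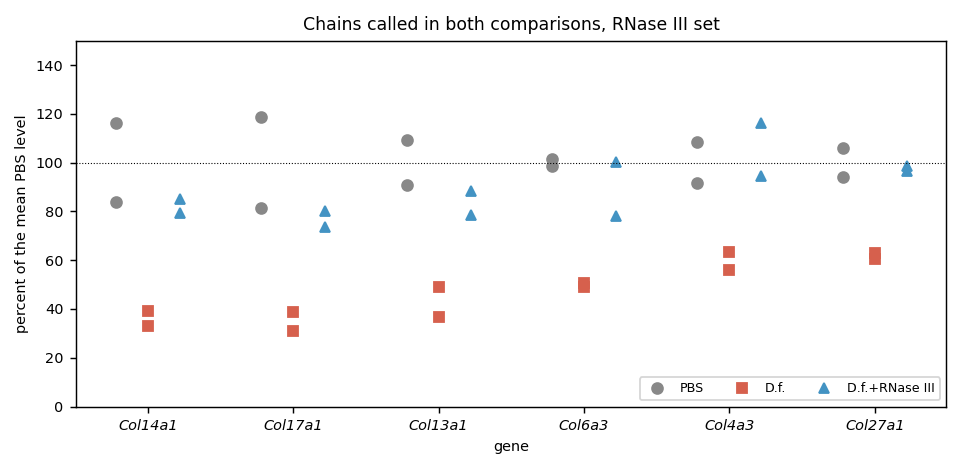
Level of 6 collagen chains (x axis) in each library of the RNase III set as a percent of the mean PBS level (y axis, linear from 0); circles are PBS, squares D.f. extract and triangles D.f. extract with RNase III, 2 libraries each. The chains shown are the 6 called in both comparisons. The squares lie below all other points for each gene, which follows from that choice.

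Col4a1 behaved otherwise. It was at 2015 and 1649 CPM with RNase III, between the PBS and the D.f. libraries, and differed from D.f. extract alone by -0.31 ± 0.16 on the log2 scale (edgeR adjusted p = 0.290). Against PBS, D.f. extract with RNase III changed 0 of 34 chains by edgeR and 0 by DESeq2, where 0.00646% of all genes tested were called. At an unadjusted p under 0.05 was 1 of the 34 chains (Col4a1, log2 fold change 0.48 ± 0.16), beside 748 of all 15491 genes. The number of calls between RNase III and untreated extract varied with the libraries: leaving out D.f. replicate 3 gave 2 calls, leaving out D.f. replicate 4 or either RNase III library gave 0, and leaving out either PBS library gave 14. DESeq2 called 13 chains and a fit with no filter on low counts 10, and both kept the 6. The shares of all genes called in these alternatives are not given here. Over the 10 alternatives the log2 fold changes of these chains stayed positive, at 1.07 to 1.32 for Col14a1, 0.99 to 1.32 for Col17a1, 0.76 to 1.20 for Col13a1, 0.65 to 1.02 for Col6a3, 0.66 to 0.97 for Col4a3 and 0.64 to 0.69 for Col27a1.

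Markers of several cell types also changed with D.f. extract, in both directions. Of all genes tested, 6.87% were called higher and 4.84% lower with D.f. extract against PBS. Of 14 fibroblast markers, 8 were lower and 0 higher with D.f. extract against PBS (median log2 fold change -1.07), with summed levels of 3440 and 2536 CPM with PBS, then 1284 and 1140 CPM with D.f. extract and 2770 and 2053 CPM with RNase III. The most abundant of them, Npnt, was at 926 and 652 CPM with PBS, then 289 and 280 CPM with D.f. extract and 824 and 585 CPM with RNase III, and Inmt had the largest fall, of 2.53 on the log2 scale. With RNase III against D.f. extract, 5 fibroblast markers were higher and 0 lower, where 2.65% of all genes tested were called higher and 5.35% lower. Of 7 mesothelial markers 4 fell with D.f. extract, summing to 285 and 395 CPM with PBS against 247 and 170 CPM with D.f. extract. With RNase III they summed to 231 and 242 CPM, between the D.f. libraries and below both PBS libraries. Of 11 tested leukocyte markers 5 rose, with sums over the 12 listed going from 356 and 335 CPM to 820 and 791 CPM, led by Ly6c2 of monocytes (log2 fold change 4.68). Of 12 endothelial markers 3 fell, of 13 smooth muscle and pericyte markers 2, of 8 alveolar type 1 markers 1, and of 8 alveolar type 2, 9 airway epithelial and 5 tested adipose markers 0 passed the test. Of 10 cardiac muscle markers 1 fell (Myh7), and of 4 tested cartilage markers 1 fell (Cytl1). The part of these cell types, cardiac muscle and adipose tissue included, in the collagen changes was not tested.

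The enzymes that process collagen changed in both directions with D.f. extract, where 6.87% of all genes tested were called higher and 4.84% lower. Of 18 genes of collagen modification and folding, 2 rose and 3 fell. The lysyl hydroxylase Plod3 rose by 0.77 on the log2 scale, while the collagen galactosyltransferase Glt25d2 fell by 1.16 and the prolyl 3-hydroxylases Leprel1 and Leprel2 by 1.23 and 0.86. Of 12 genes of propeptide cleavage and crosslinking, 1 rose (Loxl3, a lysyl oxidase, by 0.63) and 3 fell, among them the procollagen cleavage enhancer Pcolce2. It went from 239 and 166 CPM to 56.9 and 41.5 CPM, a fall of 2.04 (edgeR adjusted p = 0.00290), and was at 154 and 126 CPM with RNase III.

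Among 16 genes of collagen breakdown and its inhibitors, 3 rose and 2 fell, beside 6.87% of all genes tested called higher and 4.84% lower. The protease inhibitor Timp1 was at 8.85 and 18.6 CPM with PBS, then 172 and 132 CPM with D.f. extract and 35.4 and 51.2 CPM with RNase III, a rise of 3.46 ± 0.37 against PBS (edgeR adjusted p = 0.00217). The collagenases Mmp14 and Mmp13 rose by 0.71 and 1.62. Mrc2, a receptor that takes up collagen fragments, went from 230 and 229 CPM to 91.7 and 82.3 CPM, a fall of 1.40, and Timp2 fell by 0.62.

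Of 8 collagen receptors 2 rose, Lair1, an inhibitory receptor of leukocytes, by 1.64 and the receptor kinase Ddr1 by 0.60. The shares over all genes tested were 6.87% called higher and 4.84% called lower. Of 8 fibril-associated proteoglycans 3 fell (Ogn by 1.78, Podn by 0.80 and Fmod by 1.60) and 0 rose. Of 15 basement membrane partners 4 fell, all laminin chains (Lama3 by 1.05, Lamc3 by 0.92, Lama2 by 0.80 and Lamb2 by 0.61), and 0 rose.

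With RNase III against D.f. extract, Glt25d2, Leprel1, Leprel2 and Plod2 were higher and Plod3 lower among the modification genes, and Pcolce2 was higher by 1.51. Mrc2 was higher by 1.01 and Timp1 lower by -1.81 on the log2 scale, and the receptors Lair1 and Ddr1 were lower. Ogn, Lama3, Lama2 and Lamc3 were higher. In this comparison 2.65% of all genes tested were called higher and 5.35% lower. The D.f. libraries are again shared with the comparison against PBS.

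In the knockout set, wild-type lung had 1 PBS library, assumed to vary like the replicated groups. There D.f. extract changed 0 of 33 chains by edgeR, where 1.4% of all genes tested were called. At an unadjusted p under 0.05 were 13 of the 33 chains, beside 2511 of all 14107 genes. DESeq2 called Col4a1, Col5a1 and Col5a2, all higher. Col4a1 was at 2047 CPM with PBS against 3437 and 3453 CPM with D.f. extract (log2 fold change 0.75 ± 0.21, edgeR adjusted p = 0.173). Col14a1, at 59.6 CPM with PBS against 53.4 and 47.0 CPM with D.f. extract, and Col6a3, at 589 CPM and 670 and 614 CPM, did not show falls of the size seen in the RNase III set. Col17a1 was at 11.1 CPM and 5.95 and 5.14 CPM (edgeR adjusted p = 0.170). The class medians in this comparison were 0.31 (fibrillar), 0.21 (basement membrane) and 0.02 (other), beside -0.02 over all genes. The other class summed to 1929 CPM with PBS against 2238 and 2111 CPM with D.f. extract. The fall of its sum in the RNase III set was thus not seen here. The difference between the sets was not tested. Without knockout D.f. replicate 5 or 6 more chains were called, but the wild-type D.f. pair alone then set the spread.

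The 7 wild-type libraries of both sets were fitted together with set as a term, which called 8 of 35 chains for D.f. extract against PBS, 5 higher and 3 lower, where 15.6% of all genes tested were called, 9.45% higher and 6.19% lower. Col4a1 rose by 0.78 ± 0.11 (edgeR adjusted p = 0.00290), and Col4a2 by 0.52, Col18a1 by 0.39, Col9a3 by 2.01 and Col22a1, a chain of tissue junctions, by 1.70. Col22a1 was at 0.174 to 0.664 CPM in the 3 PBS libraries and 1.27 to 1.70 CPM in the 4 D.f. libraries, 3 to 12 and 22 to 39 reads. It passed the limit of 1 CPM in this fit only through its D.f. libraries, so its call is a description. Col17a1 fell by 1.31, Col14a1 by 1.01 and Col13a1 by 0.93. The class medians were 0.13 (fibrillar), 0.04 (basement membrane) and -0.31 (other), beside -0.01 over all genes. Leaving out 1 library moved them over -0.0082 to 0.26, -0.084 to 0.13 and -0.49 to -0.25, lowest without the wild-type PBS library of the knockout set and highest without D.f. replicate 3 of the RNase III set. These libraries overlap those of the comparisons above, so this is not separate evidence. The calls of Col4a1 and Col17a1 held in all 11 alternatives, and the count was 5 without wild-type D.f. replicate 3 of the knockout set, 4 without its replicate 4, and 3 and 4 without D.f. replicates 3 and 4 of the RNase III set, and 6 without PBS replicate 2 of that set.

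The double knockout was compared with wild type under D.f. extract to ask which levels depend on Tlr3 and Mavs. Log2 fold changes were negative for 6 of 8 fibrillar, 7 of 8 basement membrane and 12 of 17 other chains tested. Of all 14107 genes tested, 6945 were negative. The class medians were -0.63 (fibrillar), -0.31 (basement membrane) and -0.22 (other), beside 0.00 over all genes. Of 33 chains 2 were called, both lower, where 2.44% of all genes tested were called, 0.496% higher and 1.94% lower. Col5a1 (chr2:27741945-27895034, plus strand), which sets the width of type I fibrils, was at 320 and 322 CPM in wild-type and 215 and 204 CPM in knockout lung, lower by -0.61 ± 0.09 on the log2 scale (edgeR adjusted p = 0.0373). Its exons overlap those of 2810430I11Rik by 99 bases and of Gm13372 by 113 bases on the opposite strand. Col15a1 (chr4:47221033-47326039, plus strand), which links basement membranes to nearby fibrils, was at 65.9 and 54.9 CPM in wild-type and 22.5 and 30.6 CPM in knockout lung, lower by -1.19 ± 0.18 (edgeR adjusted p = 0.0441). Col15a1 stood at 47.1 CPM in the wild-type PBS library and 16.3 CPM in the knockout PBS library, a difference with no replicate check.

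The major fibril chains were close to the threshold. Col1a1 was at 1058 and 1034 CPM in wild-type and 693 and 577 CPM in knockout lung with D.f. extract (log2 fold change -0.72 ± 0.12, edgeR adjusted p = 0.0528). Col1a2 was at 960 and 980 CPM against 642 and 520 CPM, and Col3a1 at 2089 and 1927 CPM against 1360 and 1198 CPM. Col5a2 was at 327 and 314 CPM against 223 and 188 CPM. None of these 4 chains was called, at edgeR adjusted p between 0.0528 and 0.0615. Their groups did not overlap, a separation whose share over all genes was not counted. The PBS libraries were at 861 CPM (wild type) and 579 CPM (knockout) for Col1a1 and at 1454 and 1221 CPM for Col3a1.

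DESeq2 and a fit with no filter on low counts each called 7 chains lower. The share of all genes that these fits called is not given here, so the counts cannot be set against it. An additive fit of genotype and extract over all 6 libraries, chosen after seeing the data, called 0 chains, with 0.206% of all genes called (0.0284% higher and 0.177% lower) and Col5a1 and Col15a1 at an adjusted p of 0.0561. Leaving out a D.f. library changed the number of calls in either direction, and each such fit left 1 pair of D.f. replicates to set the spread. In the same comparison, the 14 fibroblast markers summed to 2473 and 3023 CPM in wild-type and 2987 and 2261 CPM in knockout lung, and 1 of them (Mfap4, by -1.23) was lower. The 9 tested cardiac muscle markers had a median log2 fold change of -1.91, with 1 called. The 10 listed summed to 467 and 695 CPM in wild-type and 132 and 194 CPM in knockout lung. In the PBS libraries they summed to 877 CPM (wild type) and 153 CPM (knockout), so every knockout library lay below every wild-type library. Of the lists of collagen partners, Plod1, a lysyl hydroxylase, at -0.70, and the basement membrane proteoglycan Agrn at -0.96 were called. The part of the cardiac markers in the collagen difference was not tested.

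**Figure D5:**
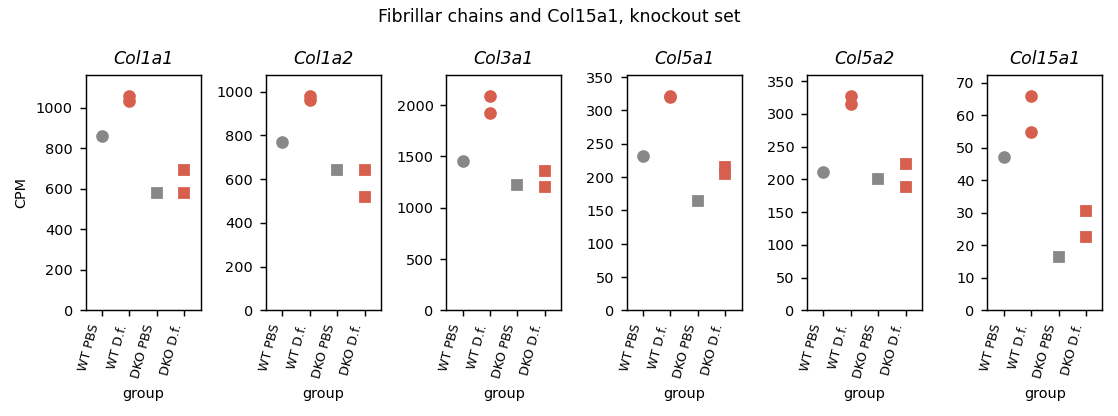
CPM (y axis, linear from 0, scaled for each gene) of 5 fibrillar chains and Col15a1 in the 4 groups of the knockout set (x axis); circles are wild type, squares the double knockout, grey PBS and red D.f. extract, and each point is 1 library. With D.f. extract, both knockout points lie below both wild-type points in each panel.

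In knockout lung, D.f. extract against 1 PBS library changed 0 of 33 chains by edgeR and 0 by DESeq2, where 0% of all genes tested were called. At an unadjusted p under 0.05 were 2 of the 33 chains (Col5a1 and Col15a1, log2 fold changes 0.35 and 0.71), beside 786 of all 14107 genes, a similar share. Col4a1 was at 2115 CPM with PBS against 2242 and 3092 CPM with D.f. extract, and the 2 D.f. libraries differed by more than the lower of them differed from PBS. Leaving out knockout D.f. replicate 5 or 6 set 1 D.f. library against 1 PBS library. The spread then came from the wild-type D.f. pair alone. The log2 fold change of Col4a1 was 0.55 without replicate 5 and 0.08 without replicate 6. The interaction of genotype and extract tests whether the response differed between genotypes. It was called for 0 of 33 chains by edgeR and 0 by DESeq2, where 0% of all genes tested were called. At an unadjusted p under 0.05 were 4 of the 33 chains (Col8a1, Col8a2, Col20a1 and Col5a2), beside 1404 of all 14107 genes, a similar share. Leaving out knockout D.f. replicate 5 or 6 left 1 library in each knockout group and changed which chains stood out. Col14a1 had an interaction of -0.60 without replicate 5 and 0.58 without replicate 6, while Col8a1 stayed at -0.71 and -0.73. For Col4a1 the interaction was -0.42 ± 0.29 on the log2 scale.

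Members under 1 CPM in every fit were Col2a1, Col9a1, Col9a2, Col10a1, Col11a1, Col19a1, Col24a1 and Col25a1. Col2a1, Col9a1, Col9a2 and Col10a1, chains of cartilage and growth plate, had 0 to 6 reads in each of the 12 libraries, so no difference was detectable at this depth. Col24a1 and Col25a1 reached 1.21 and 0.916 CPM at most. Col6a6 was tested in the RNase III set but not in the knockout set, where its mean was 0.897 CPM, and at the same limit Col22a1 lay below it in both sets, at 0.910 and 0.752 CPM. Just inside the limit were Col6a6 in the RNase III set, at 1.12 CPM, and Col28a1, at 1.44 and 1.56 CPM.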

How the data were processed

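The authors' deposited tables hold raw counts per gene, with HTSeq named in the submitters' processing notes after mapping to mm9 with TopHat2 2.0.8b; the strand setting of HTSeq is not given in the sources used here, so reads of overlapping genes on opposite strands cannot be told apart. HTSeq totals stayed out of library sizes: no feature, 27.0% to 40.0% of reads, not unique, 36.8% to 44.6%, and ambiguous, 0.0552% to 0.172%, which left 23.1% to 28.2% assigned.

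Counts were fitted in R 4.3.3 with edgeR 4.0.16 (TMM, glmQLFit, glmQLFTest, genes with a mean of at least 1 CPM, Benjamini-Hochberg over all genes tested, threshold 0.05). A set's 6 libraries entered 1 fit of group means (3 residual degrees of freedom with RNase III, 2 with knockout). DESeq2 1.42.0, RLE factors, filterByExpr, no filter and leaving out each library were alternatives. Groups came from sample titles. Chains named were those called, the 4 with the highest CPM per kb of each class, partners, and genomic neighbours; of each list, up to 4 called genes with the smallest p. Others named for contrast were chosen after seeing their values. One further gene list is not reported here. The members and lists were chosen with earlier results of these data known. Exon lengths and coordinates came from GENCODE release M1 (NCBIM37). No library appeared deposited in duplicate. The analysis was tested on simulated data.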

Additional observations from a re-analysis of the deposited data

How the results depend on the processing

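No paired analysis was possible because the groups compared share no replicate numbers within a set. The alternatives can also call more or fewer of all genes, and those shares are not given here. RLE scaling changed no count of called chains. DESeq2 called 14 in the fit over both sets, 13 for RNase III against D.f. extract, 3 for wild-type D.f. extract against PBS in the knockout set and 7 for knockout against wild type; with no filter the counts were 10 for RNase III against D.f. extract and 7 for knockout against wild type, and the additive fit called 0. Leaving out each library gave 2 to 17 called for D.f. extract against PBS, 0 to 14 for RNase III against D.f. extract, 3 to 11 over both sets, 0 to 16 in wild type and 0 to 11 in the knockout of the knockout set, 0 to 15 for knockout against wild type and 0 to 6 for the interaction. Leaving out a PBS library of the knockout set removed the contrasts that need it. Leaving out a D.f. library there left only the D.f. pair of the other genotype to set the spread, so those counts rest on that pair. Restricted to type IV, the basement membrane median was -0.28 over both sets, -0.43 for D.f. extract against PBS and 0.62 for RNase III against D.f. extract, and that of the other chains was -0.26 for knockout against wild type. With filterByExpr and with no filter, the median of the other chains was 0.060 and 0.11 for wild-type D.f. extract in the knockout set, -0.046 and -0.065 for the interaction, and -0.27 and -0.30 for knockout against wild type. Over left-out libraries, fibrillar medians ranged from -0.059 to 0.18 in the knockout with D.f. extract, 0.31 to 0.40 in wild type of that set, -0.39 to -0.13 for the interaction, -0.70 to -0.54 for knockout against wild type, -0.21 to 0.16 for D.f. extract against PBS and -0.026 to 0.45 for RNase III against PBS. Medians of the other chains ranged from -0.073 to 0.21 in the knockout with D.f. extract, -0.14 to 0.14 for the interaction and -0.27 to -0.22 for knockout against wild type. The causes were not tested. Groups of 1 or 2 libraries limit the precision of each value.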

Other observations

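Over the wild-type libraries of both sets, several partners of the collagen chains passed the test that did not pass it in the RNase III set (edgeR, adjusted p below 0.05). In the fit over these libraries, 9.45% of all genes tested were called higher and 6.19% lower. Among genes of propeptide cleavage and crosslinking, 4 rose and 1 fell of 12 tested. The procollagen N-proteinases Adamts14 and Adamts3 rose by 0.87 and 0.87 on the log2 scale, and the crosslinking enzyme Lox by 0.43. Among 15 basement membrane partners, 2 rose, the proteoglycan Agrn by 0.76 and the linker protein Nid1 by 0.46, and 3 laminin chains fell. The neutrophil collagenase Mmp8 rose by 1.23. These libraries include those of the RNase III set, so the values are not independent of it.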
